A study of Homo sapiens with 16 samples.

Results

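The 8 genes described here belong to the HLA class I antigen presentation pathway and were followed in human embryonic stem cells. They were HLA-B, HLA-C, HLA-E, HLA-G, B2M, TAP1, TAP2 and TAPBP. They were taken by gene symbol from a deposited table of translation ratios with 28252 genes, and all 8 had a ratio in each of its 8 columns, as did 15864 genes in all. The cells were H9, an established embryonic stem cell line, kept in mTeSR1 medium without feeder cells. They received a control siRNA or an siRNA to OCT4 (siOCT4), the pluripotency factor encoded by POU5F1, at 20% or at 1% oxygen. Each of the 4 groups (control at 20%, control at 1%, siOCT4 at 20%, siOCT4 at 1%) had 2 cultures. Each culture had a library of total RNA (RNA-seq) and a library of RNA bound to ribosomes, the ribosome-nascent chain complex (RNC-seq), giving 16 libraries. Separate growth of the cultures within a group is not stated in the labels, so every p-value reflects the spread of these samples only, which may be technical. All groups came from 1 cell line, and the time of siRNA and oxygen treatment is not given in the sources used here.

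HLA class I molecules hold short peptides from proteins made inside the cell and show them on the cell surface. HLA-B and HLA-C are classical heavy chains read by CD8 T cells and natural killer (NK) cells, whereas HLA-E and HLA-G are non-classical heavy chains that bind inhibitory receptors, and HLA-G is best known from the trophoblast. B2M encodes the light chain that every class I heavy chain needs, TAP1 and TAP2 form the transporter that moves peptides into the endoplasmic reticulum, and TAPBP encodes tapasin, which holds empty class I molecules at that transporter. All but B2M lie in the major histocompatibility complex on chromosome 6, and B2M is on chromosome 15 (GENCODE 29). Embryonic stem cells are known for low class I levels at the surface.

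The first 60 bases of the coding sequence are shown for the heavy chains and B2M, because the heavy chains are near copies of one another and reads can match more than 1 of them. The sequences are from GENCODE 29, and capitals mark a run of 16 bases, at positions 6 to 21 counted from the start codon, that is identical in HLA-B, HLA-C and HLA-G.
HLA-B: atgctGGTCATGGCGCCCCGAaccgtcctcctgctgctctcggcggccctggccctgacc
HLA-C: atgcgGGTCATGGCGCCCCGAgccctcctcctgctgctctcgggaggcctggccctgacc
HLA-G: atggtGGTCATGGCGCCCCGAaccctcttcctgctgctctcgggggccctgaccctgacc
HLA-E: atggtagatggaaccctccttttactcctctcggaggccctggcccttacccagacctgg
B2M: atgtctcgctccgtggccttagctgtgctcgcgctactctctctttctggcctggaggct
The run encodes residues of the signal peptide, and it is in neither HLA-E nor B2M at this place. Over the whole coding sequence HLA-B and HLA-C were 92.5% identical, and the other pairs of heavy chains were 86.3% to 88.9% identical. Of all 50-base windows of the transcript, 2.54% in HLA-B, 6.79% in HLA-C, 5.13% in HLA-E and 4.38% in HLA-G also occurred in another annotated gene. The shares were 0 in B2M and TAPBP and 1.07% in TAP1, but 80.2% in TAP2. How reads that fit several genes were counted is not given in the sources used here, so the values of the heavy chains and of TAP2 are uncertain in that respect. HLA genes also vary between genomes, and the alleles of H9 were not analysed here.

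A second property bears on every value. Ratios followed the GC content of the transcript in 2 of the 4 groups. GC content accounted for 71.6% and 64.9% of the variance of the log2 ratio in the control cultures at 20% oxygen and for 64.0% and 66.2% in the siOCT4 cultures at 1% oxygen. It accounted for 0.101% and 9.97% in the control cultures at 1% and for 14.3% and 9.23% in the siOCT4 cultures at 20%. All of the genes but B2M have GC-rich transcripts of 54.8% (HLA-E) to 60.2% (HLA-C), and B2M has 39.4%. The median ratio of 2014 genes with 57% to 61% GC was 0.511 and 0.697 in control cultures at 20%, 1.02 and 0.847 at 1%, 0.998 and 1.01 in siOCT4 cultures at 20%, and 0.579 and 0.560 at 1%. Differences are therefore given as deposited and after GC correction, in which each log2 ratio was replaced by its distance from a smooth curve on GC content in its culture. Differences are on the log2 scale with their standard error, and a call means an adjusted p under 0.05 in limma's moderated test over all genes tested.

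**Figure D1:**
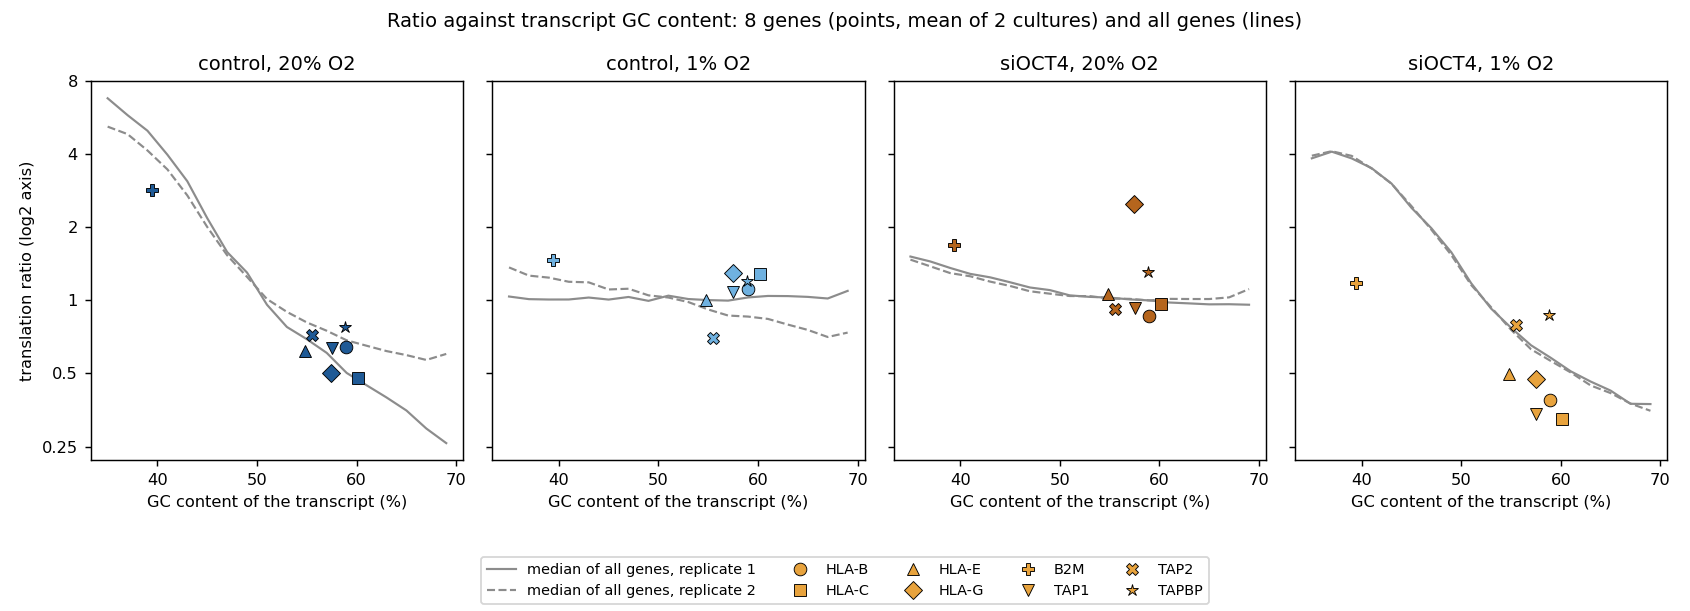
Translation ratio (log2 axis) against the GC content of the transcript (%), with 1 panel for each group; symbols are the 8 genes (geometric mean of 2 cultures) and lines the median of all genes in bins of GC content, 1 line for each culture. The lines fall steeply in the control group at 20% oxygen and the siOCT4 group at 1% and less in the siOCT4 group at 20% and the second control culture at 1%, and the first control culture at 1% is nearly flat; B2M, at 39.4% GC, lies apart from the other 7 genes.

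The translation ratio is the level of a gene in the ribosome-bound library over its level in total RNA. A ratio can differ because either level differed, and the 2 levels cannot be told apart here. No count or depth is given in the deposited table, so the depth behind each value is unknown.

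The classical heavy chains HLA-B and HLA-C had their highest ratios in control cells at 1% oxygen and their lowest in siOCT4 cells at 1% oxygen. HLA-B had ratios of 0.632 and 0.651 in control cultures at 20%, 1.26 and 0.992 in control cultures at 1%, 0.859 and 0.869 in siOCT4 cultures at 20%, and 0.379 and 0.400 in siOCT4 cultures at 1%. The 4 groups did not overlap, in the order control at 1%, siOCT4 at 20%, control at 20% and siOCT4 at 1%. Groups without any overlap were found for 27.3% of all genes as deposited and for 21.4% after GC correction, and for 2 and 1 of the 8 genes. After correction the distances of HLA-B from the curve were 0.32 and -0.06 in control cultures at 20% and 0.36 and 0.28 at 1%, so these groups overlapped, and control cultures at 20% lay above siOCT4 cultures at 20% (-0.21 and -0.18). HLA-C gave 0.412 and 0.553 in control cultures at 20%, 1.50 and 1.09 in control cultures at 1%, 0.901 and 1.03 in siOCT4 cultures at 20%, and 0.320 and 0.328 in siOCT4 cultures at 1%. Its groups stood in the order given for HLA-B, without overlap, as deposited and after correction. The correlation of the log2 ratios of HLA-B and HLA-C over the 8 cultures was r = 0.968 (n = 8; cultures of 1 line whose groups differ in their GC dependence).

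HLA-E, whose own groove usually carries signal peptides of other class I chains, was also lowest in siOCT4 cells at 1% oxygen, but its highest mean deposited ratio was in siOCT4 cells at 20%. Its ratios were 0.528 and 0.718 in control cultures at 20%, 1.19 and 0.855 in control cultures at 1%, 1.06 and 1.07 in siOCT4 cultures at 20%, and 0.498 and 0.496 in siOCT4 cultures at 1%. The siOCT4 cultures at 1% were lowest, and those at 20% lay within the range of the control cultures at 1%. After GC correction the distances from the curve were 0.28 and -0.10 in control cultures at 1% and 0.04 and 0.08 in siOCT4 cultures at 20%. The control cultures at 1% then had the higher mean, and the groups still overlapped.

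HLA-G stood apart from the other heavy chains in siOCT4 cells at 20% oxygen. HLA-G ratios were 0.587 and 0.428 in control cultures at 20%, 1.37 and 1.24 in control cultures at 1%, 2.28 and 2.73 in siOCT4 cultures at 20%, and 0.467 and 0.484 in siOCT4 cultures at 1%. The siOCT4 cultures at 20% were highest, the control cultures at 1% came next, and the remaining groups overlapped. In the siOCT4 cultures at 20%, HLA-G ranked at the 97.5th and 98.7th percentile of the genes tested. Those 2 ratios were not particular to HLA-G. They were held by 186 and 134 genes of their cultures, HLA-G included, and equalled 3 times the commonest ratio of the culture, to within a relative difference of 2e-06. In other cultures the HLA-G value was held by 22 and 2 genes (control at 1%), 5 and 2 genes (control at 20%) and 15 and 6 genes (siOCT4 at 1%). A ratio held by at least 3 genes of a culture, called recurrent here, occurred in a single culture each for B2M (6 genes, the second siOCT4 culture at 1%) and TAP1 (3 genes, the first control culture at 1%). Recurrent values are what small whole numbers of reads give when divided by one another, but read numbers are not in the table, and the part of this in the HLA-G differences was not tested.

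B2M, the shared light chain, differed from the heavy chains in the order of its deposited ratios. Its ratios were 3.03 and 2.68 in control cultures at 20%, 1.35 and 1.58 in control cultures at 1%, 1.83 and 1.57 in siOCT4 cultures at 20%, and 1.12 and 1.25 in siOCT4 cultures at 1%. Control cultures at 20% were highest and siOCT4 cultures at 1% lowest, and the groups in between overlapped. In 3 of the 4 groups, all but siOCT4 at 20% where HLA-G was higher, B2M had the highest mean ratio of the 8 genes as deposited. After GC correction its distances from the curve were 0.47 and 0.41 in control cultures at 1%, 0.44 and 0.28 in siOCT4 cultures at 20%, -0.57 and -0.51 in control cultures at 20%, and -1.62 and -1.48 in siOCT4 cultures at 1%. By their means, the corrected groups of B2M stood in the order seen for HLA-C, with the first pair overlapping. In siOCT4 cultures at 1%, B2M was then at the 2.62nd and 3.47th percentile of all genes, and in control cultures at 20% at the 20.7th and 21.1st. The deposited B2M ratio was 4.80 and 4.11 times that of HLA-B in control cultures at 20%, 1.08 and 1.60 times in control cultures at 1%, 2.13 and 1.81 times in siOCT4 cultures at 20%, and 2.94 and 3.14 times in siOCT4 cultures at 1%. The correlation of the deposited log2 ratios of B2M with the other genes over the 8 cultures lay between -0.37 and 0.23.

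The transporter subunits TAP1 and TAP2 differed from each other. TAP1 ratios were 0.639 and 0.634 in control cultures at 20%, 1.16 and 1.02 in control cultures at 1%, 0.811 and 1.08 in siOCT4 cultures at 20%, and 0.264 and 0.442 in siOCT4 cultures at 1%. As with the classical heavy chains, siOCT4 cultures at 1% were lowest. Control cultures at 1% overlapped siOCT4 cultures at 20%. TAP2 ratios were 0.660 and 0.779 in control cultures at 20%, 0.668 and 0.738 in control cultures at 1%, 0.857 and 0.986 in siOCT4 cultures at 20%, and 0.558 and 1.12 in siOCT4 cultures at 1%. The siOCT4 cultures at 1% spanned all other TAP2 values. The correlation of the deposited log2 ratios of TAP1 with HLA-B was r = 0.950 over the 8 cultures, against 0.24 for TAP1 with TAP2. The groups differ in their GC dependence, and the part of this in either r was not tested.

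TAPBP ratios were 0.652 and 0.917 in control cultures at 20%, 1.17 and 1.23 in control cultures at 1%, 1.34 and 1.28 in siOCT4 cultures at 20%, and 0.876 and 0.860 in siOCT4 cultures at 1%. As deposited, the siOCT4 cultures at 20% were highest, followed by control cultures at 1%, and the remaining groups overlapped. After GC correction the distances from the curve were 0.35 and 0.43 in control cultures at 20% and 0.25 and 0.59 at 1%. They were 0.43 and 0.38 in siOCT4 cultures at 20% and 0.52 and 0.53 at 1%. The control cultures at 1% then spanned all other TAPBP values, and the deposited order was not kept.

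**Figure D2:**
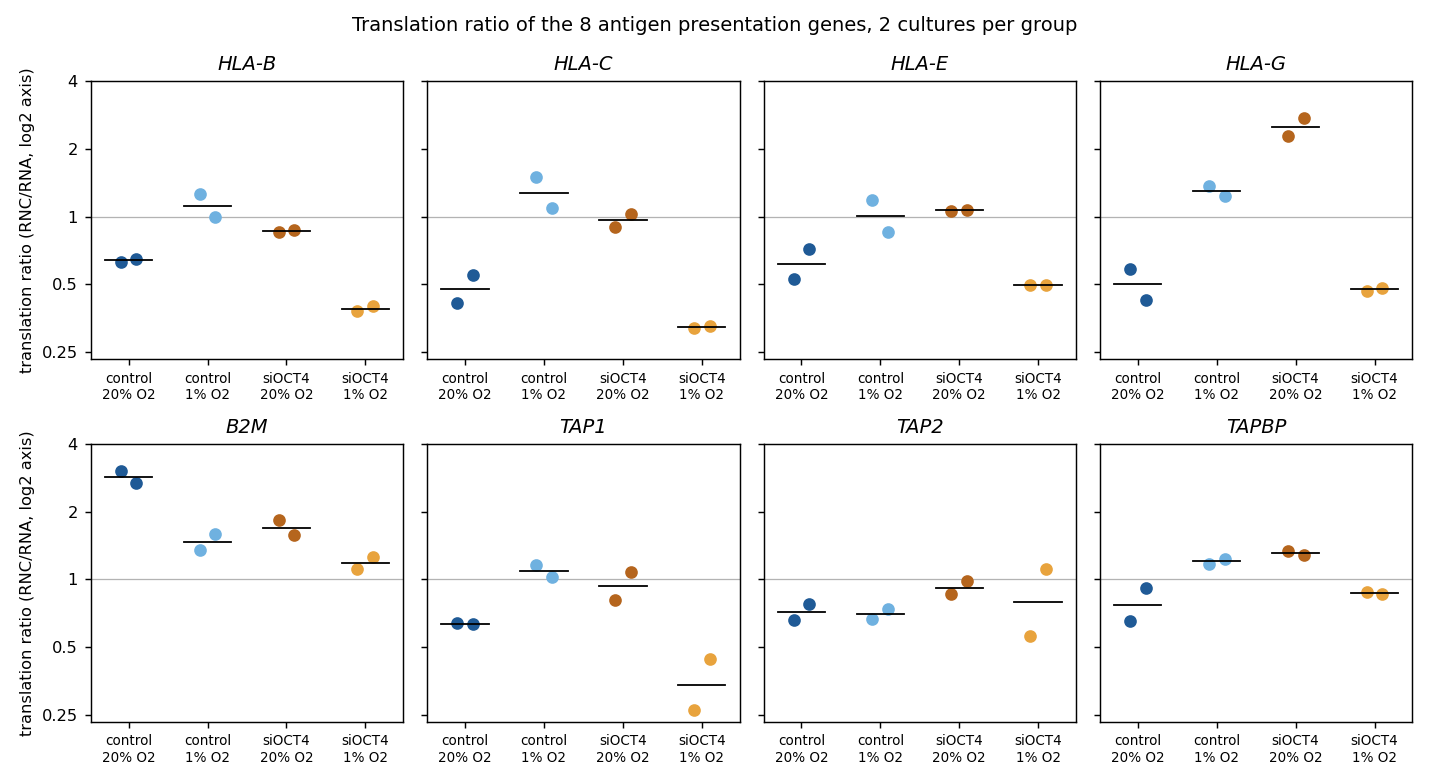
Translation ratio (RNC over RNA, log2 axis) of the 8 genes in each culture, by group; points are the 2 cultures of a group and bars their geometric mean. HLA-B, HLA-C, HLA-E and TAP1 were lowest in siOCT4 cells at 1% oxygen, HLA-G reached 2.28 and 2.73 in siOCT4 cells at 20%, and B2M was highest in control cells at 20%.

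The effect of siOCT4 at 20% oxygen was a rise of 4 of the 8 genes and a fall of 1 as deposited. Of all 15864 genes tested, 19.2% were called higher and 34.1% lower. HLA-G rose most, by 2.32 ± 0.20 (4.98-fold, adjusted p = 0.000654, limma), followed by HLA-C (1.01 ± 0.24, adjusted p = 0.0154), HLA-E (0.79 ± 0.23, adjusted p = 0.0301) and TAPBP (0.76 ± 0.18, adjusted p = 0.0167). The HLA-G ratios in siOCT4 cultures at 20% were the recurrent ones held by 186 and 134 genes. The part of this in its difference and standard error was not tested. B2M fell by 0.75 ± 0.16 (adjusted p = 0.0113). HLA-B (0.43, adjusted p = 0.0789), TAP1 (0.55, adjusted p = 0.151) and TAP2 (0.36, adjusted p = 0.391) did not pass. After GC correction only HLA-G (1.66 ± 0.27, adjusted p = 0.0215) and B2M (0.91 ± 0.11, adjusted p = 0.0164) passed among the 8, both higher, against 7.18% of 15396 genes called higher and 7.49% lower. The direction of B2M was thus opposite in the deposited and the corrected values. HLA-C and HLA-E then stood at 0.18 and 0.34. Of 8 fits that each left out 1 culture, the deposited difference was called in 5 for HLA-C, 3 for HLA-E, 6 for TAPBP, 6 for B2M and all 8 for HLA-G. Without the first siOCT4 culture at 20%, TAPBP had adjusted p = 0.0818 (limma). Without the second siOCT4 culture at 20%, the deposited differences of HLA-C and HLA-E had adjusted p = 0.0925 and 0.119, that of B2M 0.0763, and the corrected ones of HLA-G and B2M 0.126 and 0.114 (limma).

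At 1% oxygen the heavy chains and TAP1 stood lower after siOCT4 than after the control siRNA. As deposited 5 of the 8 genes fell and none was called higher, against 19.9% of all genes lower and 41.1% higher. HLA-C fell by 1.98 ± 0.24 (3.95-fold, adjusted p = 0.00100, limma), TAP1 by 1.67 ± 0.29 (adjusted p = 0.00371), HLA-B by 1.52 ± 0.17 (adjusted p = 0.000811), HLA-G by 1.45 ± 0.20 (adjusted p = 0.00150) and HLA-E by 1.02 ± 0.23 (adjusted p = 0.0101; 0.0509 without the first control culture at 1%). The median of the 8 genes was -1.24 and that of all genes 0.42. The HLA-G ratios in both siOCT4 cultures and in the first control culture at 1% were recurrent. Their part in the HLA-G difference was not tested. After GC correction, 6 genes fell, the same 5 and B2M, against 22.5% of all genes lower and 21.7% higher. B2M then had the largest difference of the 8, a fall of 1.99 ± 0.11 (3.97-fold, adjusted p = 0.000983), whereas its deposited difference was -0.31 (adjusted p = 0.149). HLA-C fell by 1.31 ± 0.11 (adjusted p = 0.00117) and HLA-B by 0.94 ± 0.15 (adjusted p = 0.00461). The corrected difference of HLA-G (-0.99, adjusted p = 0.0312) passed in 2 of 8 fits that each left out 1 culture, with adjusted p = 0.119 without the first siOCT4 culture at 1%. That of TAP1 (-1.20, adjusted p = 0.0227) passed in 5 of 8, with adjusted p = 0.0873 without the first control culture at 1%. TAP2 and TAPBP did not pass in either form, although corrected TAP2 was called higher (0.97, adjusted p = 0.0210, limma) without the first siOCT4 culture at 1%.

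Low oxygen in control cells raised 5 of the 8 genes as deposited and lowered 1. Over all genes 20.5% were called higher and 39.6% lower. The HLA-G ratios in the first control culture at each oxygen level were recurrent, which limits its values below. HLA-C rose by 1.42 ± 0.24 (2.68-fold, adjusted p = 0.00335, limma), HLA-G by 1.38 ± 0.20 (adjusted p = 0.00174), HLA-B by 0.80 ± 0.17 (adjusted p = 0.00878), HLA-E by 0.71 ± 0.23 (adjusted p = 0.0375) and TAPBP by 0.63 ± 0.18 (adjusted p = 0.0265). B2M fell by 0.96 ± 0.16 (1.95-fold, adjusted p = 0.00336). TAP1 stood at 0.77 (adjusted p = 0.0601) and TAP2 at -0.03. After GC correction HLA-C (0.74 ± 0.11, adjusted p = 0.00426), HLA-G (0.86 ± 0.27, adjusted p = 0.0469) and B2M (0.98 ± 0.11, adjusted p = 0.00165) passed, all higher, against 23.0% of all genes higher and 23.1% lower. B2M again changed direction between the forms, and it was called in all 8 fits that left out 1 culture in both. HLA-G after correction was called in 1 of those 8 fits, with adjusted p = 0.146 without the second control culture at 1%. The deposited rises of HLA-E and TAPBP were called in 2 and 3 of those fits, with adjusted p = 0.168 without the first and 0.0927 without the second control culture at 1%.

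In siOCT4 cells low oxygen went with lower ratios in 7 of the 8 genes, all but TAP2, as deposited. Over all genes 21.6% were called lower and 37.4% higher. The HLA-G ratios in all siOCT4 cultures were recurrent, which limits its values below. HLA-G fell by 2.39 ± 0.20 (5.25-fold, adjusted p = 0.000683, limma), HLA-C by 1.57 ± 0.24 (adjusted p = 0.00264), TAP1 by 1.45 ± 0.29 (adjusted p = 0.00699), HLA-B by 1.15 ± 0.17 (adjusted p = 0.00249) and HLA-E by 1.10 ± 0.23 (adjusted p = 0.00823). TAPBP (-0.59, adjusted p = 0.0339) and B2M (-0.52, adjusted p = 0.0343) were smaller, and were called in 2 and 4 of 8 fits that left out 1 culture. Without the first siOCT4 culture at 20% their adjusted p was 0.131 and 0.172. After GC correction 4 genes fell, against 17.9% of all genes lower and 18.9% higher. They were B2M (1.92 ± 0.11, adjusted p = 0.00279), HLA-G (1.79 ± 0.27, adjusted p = 0.00636), HLA-E (0.77 ± 0.15, adjusted p = 0.0126; 0.0762 without the second siOCT4 culture at 20%) and HLA-C (0.75 ± 0.11, adjusted p = 0.00606). HLA-B (-0.43, adjusted p = 0.0670) and TAP1 (-0.85, adjusted p = 0.0732) did not pass after correction, and TAPBP stood at 0.12 (adjusted p = 0.565), in the opposite direction. Under quantile normalization of the deposited ratios 4 calls ended, those of HLA-B (-0.40, adjusted p = 0.289), HLA-C (-1.002, adjusted p = 0.0563), HLA-E (-0.75, adjusted p = 0.0991) and TAP1 (-0.90, adjusted p = 0.151).

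**Figure D3:**
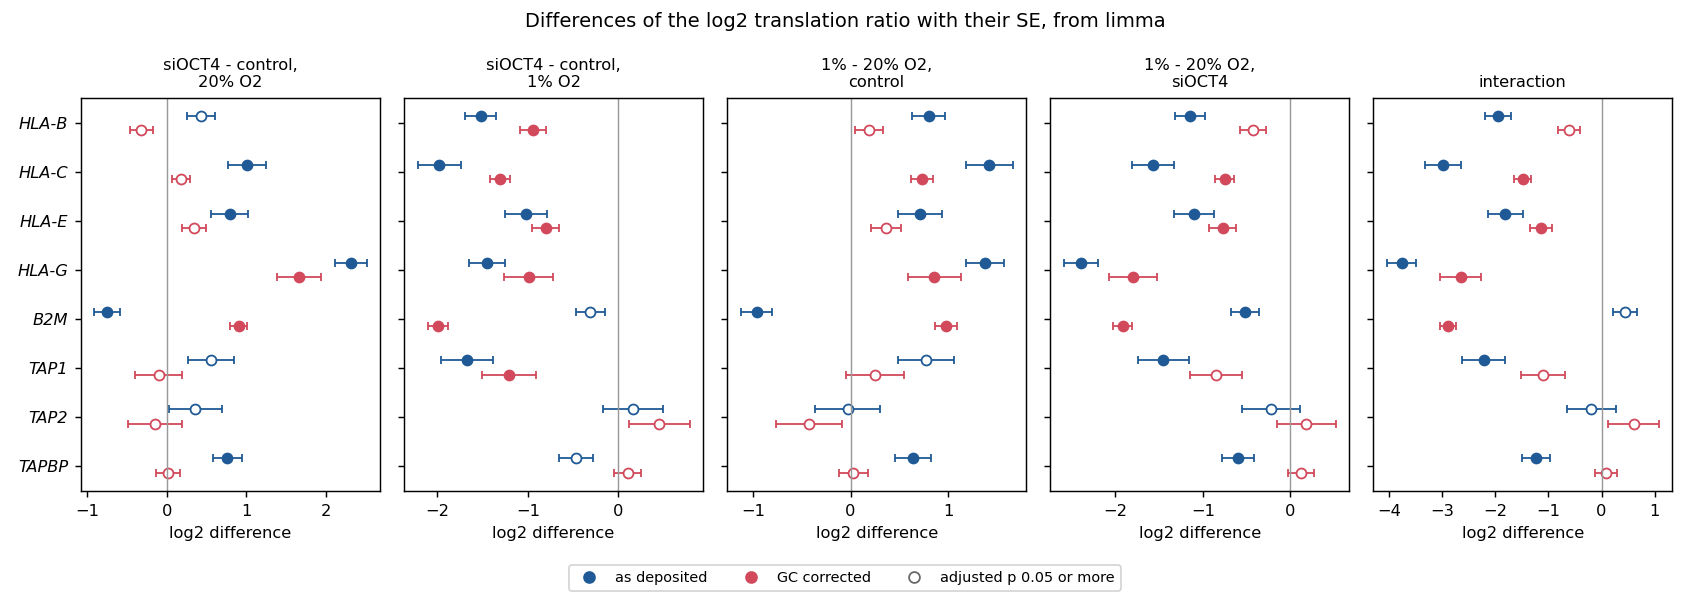
Difference of the log2 translation ratio (x axis) for the 8 genes in the 5 comparisons, as deposited (blue) and after GC correction (red); bars are the standard error from limma, and open points have an adjusted p of 0.05 or more. B2M lies on opposite sides of 0 in the 2 forms for siOCT4 at 20% oxygen, for oxygen in control cells and for the interaction, and HLA-C and HLA-G keep 1 direction in each comparison.

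The test of whether the siOCT4 effect differed between the oxygen levels was the interaction, the siOCT4 effect at 1% minus that at 20%. As deposited it was negative for 6 of the 8 genes and positive for none, against 26.2% of all genes lower and 42.5% higher. It was -3.77 ± 0.28 for HLA-G (adjusted p = 0.000115, limma), -2.99 ± 0.34 for HLA-C (adjusted p = 0.000510), -2.22 ± 0.41 for TAP1 (adjusted p = 0.00377), -1.95 ± 0.24 for HLA-B (adjusted p = 0.000756), -1.81 ± 0.32 for HLA-E (adjusted p = 0.00335) and -1.23 ± 0.26 for TAPBP (adjusted p = 0.00679). These 6 were called in all 8 fits that left out 1 culture. For B2M it was 0.44 (adjusted p = 0.135) and for TAP2 -0.19 (adjusted p = 0.738). After GC correction it passed for B2M (-2.90 ± 0.16, adjusted p = 0.000929), HLA-G (-2.65 ± 0.38, adjusted p = 0.00392), HLA-C (-1.49 ± 0.16, adjusted p = 0.00172) and HLA-E (-1.14 ± 0.21, adjusted p = 0.00870), against 21.3% of all genes lower and 22.3% higher. HLA-B (-0.62, adjusted p = 0.0565), TAP1 (-1.10, adjusted p = 0.0837) and TAPBP (0.09, adjusted p = 0.757) did not pass, nor did TAP2 (0.60, adjusted p = 0.348; 0.0236 without the first siOCT4 culture at 1%). After correction the 3 heavy chains HLA-C, HLA-E and HLA-G and their light chain B2M thus had interactions of 1 sign, which the deposited values did not show for B2M. The siOCT4 and oxygen comparisons share groups, so their differences are not independent of one another. The HLA-G ratios in the siOCT4 cultures and in the first control culture at each oxygen level were recurrent. These ratios enter the HLA-G interaction, and their part in it was not tested.

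Other genes of the pathway were read from lists by role. Of the 3 catalytic subunits of the standard proteasome, which cuts proteins into peptides, all 3 fell in siOCT4 against control cells at 1% oxygen and all 3 fell at 1% against 20% oxygen in siOCT4 cells, as deposited (19.9% and 21.6% of all genes) and after GC correction (22.5% and 17.9%). PSMB5 fell by 1.17 ± 0.19 (adjusted p = 0.00268, limma) and PSMB7 by 1.14 ± 0.16 (adjusted p = 0.00168) in the first of these, and by 1.29 and 1.53 after correction. Of the 4 tested immunoproteasome and activator genes, 2 had a recurrent ratio in at least 1 culture. None of the 4 passed for siOCT4 at either oxygen level in either form. Of all genes, 19.2% were called higher and 34.1% lower at 20% as deposited, and 41.1% and 19.9% at 1%. After correction these shares were 7.18% and 7.49% at 20%, and 21.7% and 22.5% at 1%. With low oxygen in siOCT4 cells 3 of the 4 fell as deposited (21.6% of all genes), against 1 after correction (17.9%). Among the 3 was PSME1, a subunit of the proteasome activator, which fell by 0.73 ± 0.22 (adjusted p = 0.0288) and stood at -0.75 (adjusted p = 0.0593) after correction.

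Of 9 tested peptide loading and trimming genes, 5 rose and 1 fell in siOCT4 cells at 1% oxygen, and 3 rose and 2 fell after correction. Of all genes, 41.1% rose and 19.9% fell there as deposited and 21.7% and 22.5% after correction, so these counts are not far from the background. LNPEP, an aminopeptidase that trims peptides in endosomes, rose by 2.56 ± 0.18 (5.90-fold, adjusted p = 0.000308, limma), or by 0.85 ± 0.13 after correction (adjusted p = 0.00411). TPP2, a cytosolic peptidase, rose by 2.37 ± 0.23 (adjusted p = 0.000533), or by 0.85 ± 0.15 after correction (adjusted p = 0.00753). At 20% oxygen the order was opposite as deposited, with 6 of the 9 lower in siOCT4 cells and 1 higher. Of all genes, 34.1% were called lower and 19.2% higher there. After correction 1 was higher and none lower, against 7.18% of all genes higher and 7.49% lower. LNPEP then stood at -0.43 (adjusted p = 0.0763, limma). A recurrent ratio in at least 1 culture occurred for 2 of the 9 genes.

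Of 13 regulators of class I genes, 7 rose and 3 fell in siOCT4 cells at 1% oxygen, and after correction 1 rose and 5 fell. The deposited counts are near the shares of all genes given above (41.1% and 19.9%). After correction the shares of all genes were 21.7% higher and 22.5% lower. The 1 regulator that rose after correction was NFYA, a subunit of the CCAAT-binding factor NF-Y. It stood at 2.58 ± 0.18 as deposited (adjusted p = 0.000311, limma) and 1.45 ± 0.14 after correction (adjusted p = 0.00143). CREB1, which binds class I promoters, rose by 2.02 ± 0.15 as deposited (adjusted p = 0.000313) and stood at 0.26 after correction (adjusted p = 0.156). Of 12 interferon signalling genes, 6 rose and 1 fell there in both forms. The shares of all genes were 41.1% higher and 19.9% lower as deposited, and 21.7% and 22.5% after correction. A recurrent ratio in at least 1 culture occurred for 7 of the 12, and for 6 of the 13 regulators. IFNGR1, the ligand-binding chain of the interferon gamma receptor, rose by 0.89 ± 0.15 as deposited (adjusted p = 0.00380, limma) and fell by 0.73 ± 0.11 after correction (adjusted p = 0.00422).

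Of 9 tested class I-like molecules and NK cell ligands, 2 rose and 5 fell in siOCT4 cells at 1% oxygen, and 1 rose and 5 fell after correction, beside the same shares of all genes. MICB, a stress-induced ligand of the NK receptor NKG2D, fell by 1.36 ± 0.13 (adjusted p = 0.000457, limma), or by 1.71 ± 0.11 after correction (adjusted p = 0.000983). In control cells MICB rose with low oxygen by 1.61 ± 0.13 (adjusted p = 0.000234), or by 1.70 ± 0.11 after correction (adjusted p = 0.000573). Of those 9 genes, 7 had a recurrent ratio in at least 1 culture, as did 7 of the 8 tested class II genes. With low oxygen in siOCT4 cells 7 of the 8 class II genes fell as deposited and 6 after correction (medians -1.04 and -1.12), against 21.6% and 17.9% of all genes. CD74, the invariant chain of class II molecules and the only tested gene of that list without a recurrent ratio, fell by 0.84 ± 0.20 there as deposited (adjusted p = 0.0145), and stood at -0.02 after correction (adjusted p = 0.906).

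The genes with the most similar profile over the 8 cultures were sought among 8087 genes without recurrent ratios and are given as a description. They were UBAC2 for HLA-B (r = 0.996), TMEM9 for HLA-C (r = 0.998), MYL9 for HLA-E (r = 0.997), MRM3 for HLA-G (r = 0.994), CRLS1 for B2M (r = 0.991) and SULF2 for TAPBP (r = 0.994), each with n = 8. For TAP2 the most similar gene, POLA2, reached r = 0.765. Each r is the highest of its search and rests on deposited ratios, whose groups differ in their GC dependence.

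Markers of the labelled cell type were present. All 10 pluripotency markers had a ratio in every culture. POU5F1, the siRNA target, had ratios of 0.758 and 0.981 in control cultures at 20%, 1.13 and 0.810 at 1%, 1.41 and 1.42 in siOCT4 cultures at 20%, and 0.453 and 0.532 at 1%. A ratio of bound to total RNA does not check the knockdown, because both levels can fall together. Of 13 trophoblast markers, cells in which HLA-G is abundant, 5 had a ratio in every culture, all 5 with recurrent values, and 4 had no ratio in any. None of 7 immune markers had a ratio in every culture, against 5 of 8 for fibroblasts and 4 of 5 for endothelium. The 4 of endothelium all had recurrent values, and none of the 5 of fibroblasts did. A ratio in every culture was found for 15864 of all 28252 genes. Whether other cell types contributed to the HLA-G values was not tested.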

How the data were processed

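RNA-seq and RNC-seq libraries of 8 cultures entered a table of translation ratios deposited by the authors, 1 column for each culture. The ratio is linear and no counts are given. The genome build hg19 and edgeR are named in the submitters' processing notes without a role; for the aligner and the counting, nothing was given in the sources used here. Ratios were taken as log2 with no pseudocount. Genes with a ratio in all 8 columns (15864) were fitted in limma 3.58.1 (R 4.3.3; trend and robust settings, 4 group means, 4 residual degrees of freedom), with two-sided tests adjusted by Benjamini and Hochberg across every gene fitted. GC correction took residuals from a spline with 6 degrees of freedom on GC content of 1 GENCODE 29 transcript for each gene (15396 genes, 97.05%). All 8 genes were described; of each pathway list, the rule named up to 2 called genes without a recurrent ratio with the largest difference in a comparison, and a subset of these, and of the most similar genes, is described; the others are not reported here. Genes and lists were chosen with earlier results of these data known. Fits were tested on simulated data. Alternatives were other scalings, pseudocounts, filters, a replicate block and leaving out each culture. GC correction was planned as an alternative, and its values were placed beside the deposited ones after the data were seen.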

Additional observations from a re-analysis of the deposited data

Results flagged for a closer look

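For 6 of the 8 genes the siOCT4 effect differed between 1% and 20% oxygen by a direct test of that difference (limma, as deposited): HLA-B -1.95, HLA-C -2.99, HLA-E -1.81, HLA-G -3.77, TAP1 -2.22 and TAPBP -1.23 on the log2 scale. After GC correction the test passed for HLA-C, HLA-E and HLA-G of these 6 and not for HLA-B, TAP1 and TAPBP. The HLA-G ratios in the siOCT4 cultures and in the first control culture at each oxygen level were recurrent values. Their part in the HLA-G interaction was not tested. The groups with the steep dependence on GC content, control at 20% and siOCT4 at 1%, are the pair that the interaction sets against the other pair.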

How the results depend on the processing

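Base composition was the choice with most effect. The count of the 8 genes called under GC correction, with GC and length, and with the mean GC of coding transcripts (the last added after seeing the data) was 2 higher and 0 lower for siOCT4 at 20%, 3 higher and 0 lower for oxygen in control cells, and 4 lower for oxygen in siOCT4 cells. Under quantile normalization these were 2 higher and 0 lower, 0 lower, and 3 lower; with genes of recurrent ratio left out, which removes HLA-G, B2M and TAP1 from the fit, they were 0 lower, 0 lower and 4 lower. With only the groups compared, 2 were higher for siOCT4 at 20%. HLA-B, not called for siOCT4 at 20% in the main fit, was called higher there under median centring (0.50, adjusted p = 0.0464, limma). It was also called higher with genes of recurrent ratio left out (0.43, adjusted p = 0.0447, limma).

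Differences that turned direction follow in the order GC, GC and length, mean GC, then quantile normalization where it turned too. B2M was 0.91, 0.91, 0.91 and 0.64 for siOCT4 at 20%, 0.98, 1.02, 1.01 and 0.18 for oxygen in control cells, and -2.90, -2.46, -2.90 and -1.69 for the interaction, with -0.016 under median centring. HLA-B was -0.32, -0.32, -0.52 and -0.19 and TAP1 -0.10, -0.10 and -0.087 for siOCT4 at 20%. TAPBP was 0.12, 0.30 and 0.37 for oxygen in siOCT4 cells, 0.089, 0.27 and 0.53 for the interaction, 0.11, 0.28 and 0.33 for siOCT4 at 1%, and with mean GC alone -0.20 for siOCT4 at 20% and -0.16 for oxygen in control cells. TAP2, called in none of these settings, was -0.15 and -0.16, quantile -0.15, for siOCT4 at 20%; 0.18, 0.18 and 0.21 for oxygen in siOCT4 cells; and 0.60, 0.62 and 0.48 for the interaction. Median centring gave TAP2 0.17 for oxygen in control cells and -0.21 for siOCT4 at 1%. Mean GC gave TAP2 0.062 and -0.17 in those comparisons, and against the corrected values also 0.40 for siOCT4 at 20%, -0.51 for oxygen in siOCT4 cells and -0.57 for the interaction. The causes were not tested.

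Leaving out 1 culture gave 1 to 4 genes higher and 0 to 1 lower for siOCT4 at 20% and 3 to 5 higher for oxygen in control cells; after GC correction (added after seeing the data) 0 to 2 were higher for siOCT4 at 20%, and 0 to 1 higher for siOCT4 at 1% and for the interaction, both TAP2. Directions turned for TAP2 as deposited, between -0.15 and 0.090 (oxygen, control cells), -0.72 and 0.28 (oxygen, siOCT4 cells), -0.69 and 0.31 (interaction) and -0.33 and 0.67 (siOCT4 at 1%). After correction they turned for TAP2 between -0.33 and 0.70 (oxygen, siOCT4 cells) and -0.062 and 0.97 (siOCT4 at 1%), for HLA-B between -0.0012 and 0.38 (oxygen, control cells), for TAP1 between -0.31 and 0.11 (siOCT4 at 20%) and for TAPBP between -0.14 and 0.20, -0.076 and 0.26, -0.061 and 0.27, and -0.022 and 0.053 (oxygen in control cells, interaction, siOCT4 at 1% and at 20%).

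The groups share only replicate numbers; same-numbered cultures' deviations correlated at -0.23 to 0.02. With the number as a block, 4 of 40 deposited differences lost their call: HLA-E for siOCT4 at 20% (adjusted p = 0.0576, limma) and oxygen in control cells (0.0678), B2M (0.0648) and TAPBP (0.0511) for oxygen in siOCT4 cells. After correction 3 of 40 did, all HLA-G (adjusted p = 0.0530 for siOCT4 at 20%, 0.0526 for siOCT4 at 1% and 0.0729 for oxygen in control cells), leaving 1 gene higher for siOCT4 at 20% with the block. Pseudocounts of 0.01 and 0.1 moved 1 call, TAP1 for oxygen in control cells (adjusted p = 0.0457 at 0.1). Read depth is unknown, so its limit on precision cannot be given.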
